A study of Mus musculus with 6 samples.

Results

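The annexins are described here through 10 genes taken by symbol: Anxa1, Anxa2, Anxa3, Anxa4, Anxa5, Anxa6, Anxa7, Anxa8, Anxa9 and Anxa11. All 10 had a row in the count tables of nuclei 1, nuclei 2 and whole sperm and in the RPKM table, out of 25610 gene and region rows, of which 23229 were annotated genes. The series set RNA of sperm nuclei against RNA of whole sperm, to learn where sperm transcripts are held. Sperm came from the cauda epididymis and vas deferens of 4-month-old C57BL/6 mice of the transgenic line HP3.1, which every group carried; the labels do not say what the transgene is. Nuclei were 2 preparations, freed from tails by sonication and pelleted through sucrose and caesium chloride with detergent. Whole sperm was 1 preparation, extracted without those steps. The labels do not tie preparations to animals, so p-values measure the spread between preparations, which may be technical. In edgeR that spread was pooled over all rows tested, so the SE and p-value of a gene do not show its own spread.

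Annexins are soluble proteins that bind acidic phospholipids when calcium rises. Each has a conserved core of repeated domains that holds the calcium sites and an N-terminal head that differs between members and binds partners, such as S100 proteins. They act in exocytosis, vesicle traffic and the resealing of torn membranes, steps that in sperm biology bear on the acrosome reaction and on the vesicles that epididymal epithelium sheds. Annexin A5 binding to exposed phosphatidylserine is also the usual laboratory stain for dying cells, sperm included.

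Anxa11 was the annexin with most reads in every library, and its count carries a doubt that lies in its sequence. Of the bases of its 2394-base transcript, positions 1001 to 1657, the last 657 bases of a coding part that runs from 149 to 1657, were identical to the unprocessed pseudogene Gm2260 (chr14:26016431-26025837). In all, 28.9% of the transcript's 50-base words occurred in transcripts of another gene: 608 of them in Gm2260, 553 in the pseudogene Gm2274 and 68 in the antisense gene Anxa11os, none of which has a row under that name in the count tables. The stretch below, from exons 7 to 9 of 15 (mm10, chr14:25874761-25877113, plus strand, introns removed), shows where the shared part starts; lower case marks 24 bases before it and capitals the first 96 shared bases.
Anxa11, transcript 977 to 1096: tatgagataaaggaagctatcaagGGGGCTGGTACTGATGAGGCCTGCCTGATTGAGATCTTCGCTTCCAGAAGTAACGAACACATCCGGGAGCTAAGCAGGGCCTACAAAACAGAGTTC
How reads from such a stretch were shared out is not given, so the level of Anxa11 is uncertain. Anxa4 had 1.49% of its 50-base words in the antisense transcript Gm44036 and Anxa9 had 3.77% in overlapping neighbours. The other 7 members shared none with another GENCODE transcript.

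The members also differed in the DNA before their start sites. RefSeq windows of 250 bases were found for 8 of the 10 genes, 11 windows in all. Their CpG dinucleotides ranged from 2 to 30, against a median of 6 over 32851 windows, of which 92.1% held at least 1. Part of that range lay within genes: Anxa4 had windows with 13 and 2 CpG, Anxa7 with 16 and 2, and Anxa9 with 3 and 30. The Anxa9 window with 30 CpG (chr3:95315181-95315430) lay outside the GENCODE span of Anxa9. It lay before the start of the overlapping same-strand gene 6330562C20Rik (chr3:95307076-95315127). The 2 windows of Anxa7 overlapped each other. The windows of Anxa11 and Anxa8 are printed because these genes stood at opposite ends of the nuclei libraries, with most reads and with none; capitals mark CpG (build GRCm38.p6, plus strand, chr14:25841905-25842154 and chr14:34085729-34085978).
Anxa11 promoter: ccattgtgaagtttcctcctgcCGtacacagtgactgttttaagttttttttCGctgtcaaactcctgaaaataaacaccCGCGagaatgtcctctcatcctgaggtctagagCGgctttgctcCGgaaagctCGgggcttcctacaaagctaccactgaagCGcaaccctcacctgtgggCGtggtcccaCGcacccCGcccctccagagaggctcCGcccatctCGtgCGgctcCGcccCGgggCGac
Anxa8 promoter: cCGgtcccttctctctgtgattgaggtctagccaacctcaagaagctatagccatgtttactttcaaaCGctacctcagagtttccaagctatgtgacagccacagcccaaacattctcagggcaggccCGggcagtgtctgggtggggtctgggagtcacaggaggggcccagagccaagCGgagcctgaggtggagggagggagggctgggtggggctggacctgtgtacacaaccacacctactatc
The Anxa11 window held 17 CpG and the Anxa8 window 4, at the same GC content of 58%. The letters TATAAA, searched on both strands, occurred in the windows of Anxa1 and Anxa2 and in 12.4% of all windows. These are descriptions of the windows; the series measured nothing at promoters.

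Depth over all rows was 5487306 counts for nuclei 1, 6648848 for nuclei 2 and 8316345 for whole sperm. All 12 sperm markers, such as Prm1 and Odf1, had reads in every library and took 0.540%, 0.539% and 0.312% of counts, in that order. Of 12 epididymal epithelium markers, 8 had reads in whole sperm, and the list took 0.179%, 0.188% and 1.17% of counts, while the 15 epithelial markers took 0.0147%, 0.0226% and 0.0699%. Leukocyte markers (0.00809%, 0.00960% and 0.00619%), stromal markers (0.0165%, 0.0105% and 0.0156%) and endothelial markers (0.0140%, 0.0258% and 0.00916%) were scarce. Erythrocyte markers had 0, 4 and 3 reads. Fold changes below are nuclei over whole sperm on the log2 scale, and levels are CPM, counts scaled to a common library total with TMM factors, where ± after a nuclei mean is the SD over 2 preparations.

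No annexin was called higher or lower in nuclei (edgeR adjusted p under 0.05), against 0.0658% and 0.0957% of all 16720 rows called in those directions. None had an unadjusted p under 0.05 either, where 3.77% of rows were higher and 2.07% lower. At that unadjusted threshold DESeq2 had Anxa8 lower and Anxa11 higher, where 2.11% and 8.68% of its rows were, and limma on log2(RPKM + 0.1) had Anxa1 and Anxa8 lower, where 10.7% of rows were lower and 1.86% higher. After adjustment neither tool called a member; DESeq2 gave an adjusted p to 1161 rows, Anxa11 the only annexin among them, and called 3.36% of these lower and 17.6% higher, and limma called 0%. With spike-in scaling in edgeR, 3.26% of rows were called lower and 0.0239% higher, and again no annexin. Of the 10 genes, 9 passed the filter on low counts and Anxa3 did not; Anxa8 passed through whole sperm alone. Among the 9, 5 fold changes lay below 0 and 4 above, with a median of -0.40 where all rows had 0.27. Both nuclei libraries lay below whole sperm for 4 of the 9 (36.8% of all rows) and above it for 1 (26.7% of all rows), and for the other 4 they lay on either side.

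**Figure D1:**
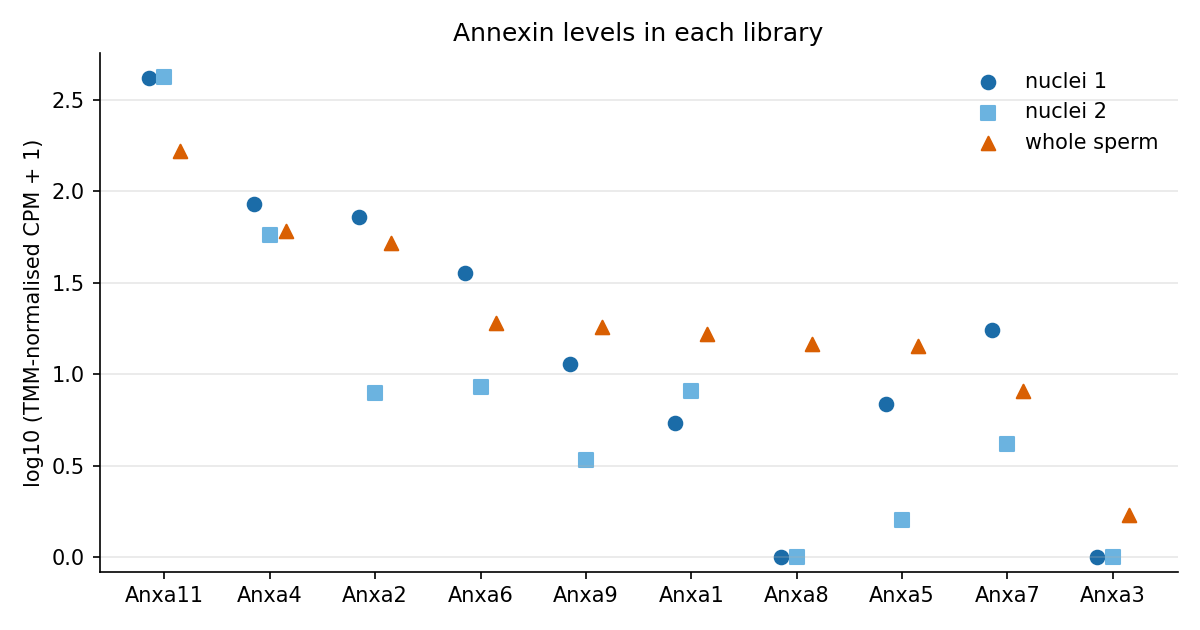
Level of each annexin in nuclei 1 (circles), nuclei 2 (squares) and whole sperm (triangles), as log10 of TMM-normalised CPM plus 1; genes are in order of their whole-sperm level and a point is 1 library. Anxa11 is highest in each library, and Anxa8 and Anxa3 sit at 0 in both nuclei libraries.

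Anxa11 and Anxa7 are the members with long, flexible heads. Anxa11 (chr14:25842156-25886804), whose protein links RNA granules to lysosomes and binds S100a6, had 2181 and 2795 reads in nuclei and 1417 in whole sperm. On the CPM scale nuclei stood at 416 and 419, 418 ± 1.97, and whole sperm at 164. Both preparations of nuclei lay above whole sperm and close to each other, a 2.55-fold difference (log2 1.35 ± 0.78 SE) that was not called (edgeR adjusted p = 0.909; adjusted p 0.0733 to 0.977 over the other tests), and with spike-in scaling it was -0.084. Relative to the median of all rows it was 1.08 with either scaling, since spike-in scaling moved that median to -1.16. The antisense gene Anxa11os overlaps its exons, and without a stated strand setting reads of the 2 genes cannot be told apart. Anxa7 (chr14:20455260-20480133), or synexin, which fuses secretory granules in vitro, had 86, 21 and 61 reads in nuclei 1, nuclei 2 and whole sperm. Its nuclei levels of 16.4 and 3.15 CPM lay on either side of whole sperm, at 7.05 CPM (log2 0.47 ± 3.18, edgeR adjusted p = 1.00).

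Anxa1 and Anxa2 bind S100 proteins through their heads. Anxa2 (chr9:69453620-69491795), which pairs with S100a10 at the plasma membrane and binds plasminogen, had 372 reads from nuclei 1, 46 from nuclei 2 and 444 from whole sperm. Its nuclei levels were 71.0 and 6.90 CPM, 10.3-fold apart, with whole sperm between them at 51.3 CPM (log2 -0.40 ± 1.06, edgeR adjusted p = 0.999). Its log2 fold change was 0.55 when taken from nuclei 1 only and -2.89 from nuclei 2 only, so the direction differed by preparation. Anxa1 (chr19:20373428-20390944), an anti-inflammatory protein of epithelia and leukocytes that acts through formyl peptide receptors, had 23, 47 and 134 reads in the same order. Its 4.39 and 7.05 CPM in nuclei both lay below the 15.5 CPM of whole sperm, a log2 difference of -1.43 ± 2.98 that was not called (edgeR adjusted p = 0.989).

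Anxa4 (chr6:86736840-86793584), an annexin of polarised epithelia, was the second by reads, with 440 and 377 in nuclei and 515 in whole sperm. Its nuclei levels were 84.0 and 56.5 CPM, with whole sperm between them at 59.5 CPM (log2 0.24 ± 0.92, edgeR adjusted p = 1.00). Anxa6 (chr11:54979108-55033445), whose core arose by duplication and which binds late endosomes, had 181, 50 and 157 reads. Nuclei 1 stood above whole sperm and nuclei 2 below it, at 34.5 and 7.50 against 18.1 CPM (log2 0.21 ± 1.73, edgeR adjusted p = 1.00). For Anxa4, Anxa6 and Anxa7 the sign of the fold change turned negative with spike-in scaling and on RPKM. Relative to the median of all rows they were -0.03, -0.06 and 0.20 with TMM and -0.03, -0.05 and 0.21 with spike-in scaling. By limma on log2(RPKM + 0.1) with the filter they were 0.13, -0.05 and 0.10 relative to that median.

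Anxa5, Anxa8, Anxa9 and Anxa3 were scarce in nuclei. Anxa5 (chr3:36448923-36475894), the phosphatidylserine binder, had 31 and 4 reads in nuclei and 115 in whole sperm. At 5.92 and 0.600 CPM against 13.3 CPM, both nuclei libraries were below whole sperm but 9.87-fold apart (log2 -2.02 ± 3.68, edgeR adjusted p = 0.98). Anxa9 (chr3:95296096-95307176), a member whose core has lost usual calcium sites, had 54, 16 and 148 reads. Its nuclei levels of 10.3 and 2.40 CPM lay below whole sperm, at 17.1 CPM (log2 -1.43 ± 2.76, edgeR adjusted p = 0.986). Exons of Anxa9 overlap those of 6330562C20Rik on the same strand and of Mindy1 on the other, so its reads are uncertain. The same holds for Anxa2, Anxa3 and Anxa4, whose exons overlap Gm16144, Gm42603 and Gm44036.

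Anxa8 (chr14:34085981-34100571), an annexin of stratified and other epithelia, had no read in either nuclei library and 118 in whole sperm, or 13.6 CPM. Set against a floor of 3 counts per library, it was at least 23.8-fold lower in nuclei, yet edgeR did not call it (adjusted p = 0.909; 0.0339 to 0.948 over the other tests, the lowest from limma on RPKM with no filter). Anxa3 (chr5:96793339-96845966), which promotes membrane fusion in neutrophils, had 6 reads in whole sperm and 0 in both nuclei libraries, and did not pass the filter on low counts (edgeR adjusted p = 0.948 with no filter). Limma on log2(RPKM + 0.1) with no filter called Anxa3 and Anxa8 lower (adjusted p 0.0425 and 0.0339), where it called 4.52% of 25607 rows lower and 0.129% higher. Both genes were at 0 RPKM in both nuclei libraries, so their nuclei values there were the added 0.1 alone and had no spread. Those limma calls thus set a constant against 1 whole-sperm library and carry little weight. The epididymal and epithelial markers given above were scarcer in nuclei as well; their part in the low nuclei counts of Anxa1, Anxa5, Anxa8 and Anxa9 was not tested. In such bulk preparations, fewer cells of a type and less RNA per cell cannot be told apart.

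**Figure D2:**
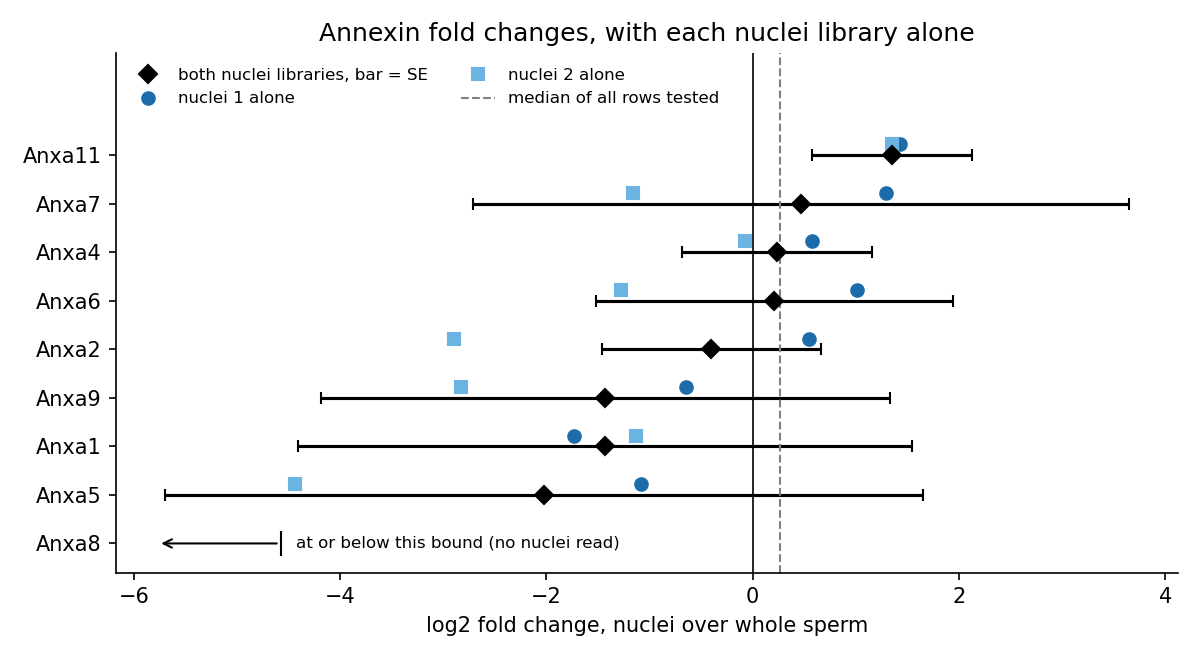
Log2 fold change of each tested annexin, nuclei over whole sperm: diamonds use both nuclei libraries with bars of 1 SE, circles nuclei 1 alone and squares nuclei 2 alone; Anxa8 is drawn at its bound. Only Anxa11 has both nuclei libraries close together above 0 (1.43 and 1.36; -0.084 with spike-in scaling), while Anxa2 runs from 0.55 to -2.89.

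As a family, annexins took 0.0614% of the reads of nuclei 1 (95% interval 0.0593 to 0.0635), 0.0505% of those of nuclei 2 (0.0488 to 0.0522) and 0.0375% of those of whole sperm (0.0362 to 0.0388). Anxa11 alone held 64.8% of the annexin reads of nuclei 1 (63.1 to 66.4), 83.3% for nuclei 2 (82.0 to 84.5) and 45.5% for whole sperm (43.7 to 47.3). Without it, the other 9 members took 0.0216%, 0.00844% and 0.0204% of the reads, in the same order of libraries. The family sum without Anxa11 was thus alike for nuclei 1 and whole sperm and lower for nuclei 2. Anxa2 and Anxa4 together made up 24.1%, 12.6% and 30.8% of annexin reads, again in that order. The intervals cover counting error only and leave out the spread between preparations.

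**Figure D3:**
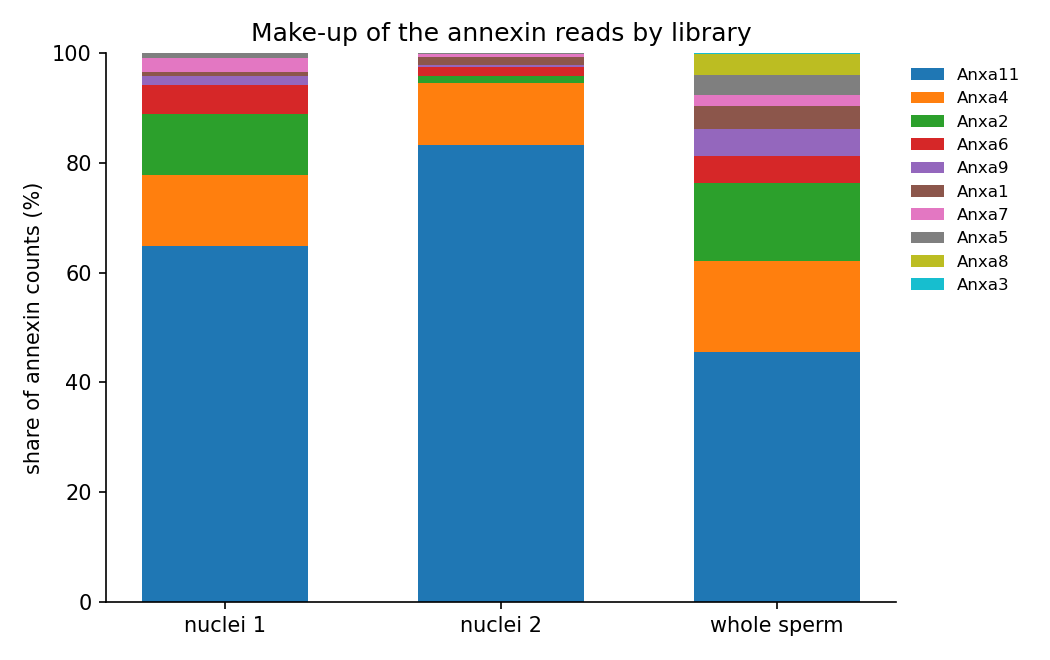
Share of the annexin counts taken by each member, in percent, in nuclei 1, nuclei 2 and whole sperm (1 library a bar). Anxa11 fills 64.8% and 83.3% of the nuclei bars and 45.5% of the whole-sperm bar, where Anxa8 also appears.

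Levels of different genes were compared per transcript length, in the deposited RPKM values. For whole sperm the order was Anxa11 at 44.8, Anxa2 at 25.0, Anxa4 at 19.1, Anxa1 at 9.61, Anxa5 at 4.84, Anxa9 at 4.76, Anxa6 at 4.18, Anxa8 at 4.18, Anxa7 at 1.34 and Anxa3 at 0.249 RPKM, from 1 library with no spread. In nuclei Anxa11 led again at 73.0 ± 7.20 RPKM (67.9 and 78.1), above all other members in both libraries. Anxa4 at 13.9 ± 1.08 and Anxa2 at 11.8 ± 13.7 RPKM could not be told apart, because the nuclei values of Anxa2 were 21.5 and 2.05. Anxa6 (3.62 ± 3.52), Anxa1 (1.73 ± 0.281), Anxa7 (1.14 ± 0.982), Anxa9 (1.03 ± 0.882) and Anxa5 (0.704 ± 0.855) followed, with neighbours within their spread. Anxa3 and Anxa8 were listed at 0 RPKM in both. Anxa11 thus led per length as well as by count, and its shared coding part leaves its RPKM uncertain too.

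The nuclei preparations were closest to each other for Anxa11 among the members with nuclei reads. Their CPM, with 1 added, differed by at least 4-fold for 4 of the 9 tested members (Anxa2, Anxa5, Anxa6 and Anxa7), against 35.6% of all rows. Of the 8 members with a nuclei read, 6 were higher in nuclei 1, where 53.1% of all rows were; Anxa1 and Anxa11 were the others. The log2 difference was 3.19 for Anxa2 and 0.01 for Anxa11, with a median of 1.36 over all rows.

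In the authors' adjusted whole-sperm column, which subtracts the mean nuclei count, Anxa11 kept 0 of its 1417 counts. Anxa7 kept 13.1%, Anxa4 20.8%, Anxa6 26.8% and Anxa2 52.9%. Anxa1 kept 73.9%, Anxa9 76.4% and Anxa5 85.2%, and Anxa3 and Anxa8 kept all. The subtraction used counts without scaling for depth, so the shares kept depend on the depth of each library. The column holds the same counts, and the annexin with most reads in whole sperm is at 0 there. None of the authors' assembled regions lay inside an annexin gene.

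Of 2 annexins outside the 10, Anxa13, the annexin of intestinal and other epithelial brush borders, had 46, 49 and 547 reads in nuclei 1, nuclei 2 and whole sperm. Its mean nuclei level, 8.06 ± 1.01 CPM, was a fitted 7.82-fold below that of whole sperm, 63.2 CPM (log2 -2.97 ± 1.38, edgeR adjusted p = 0.725). Anxa10 had 5 reads in nuclei 1 and 0 elsewhere.

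None of the small calcium-binding partners of annexins was called. Of 17 listed, 16 had a row and 10 were tested; 9 of these had fold changes below 0, with a median of -1.41, where 45.6% of all rows were below 0 and their median was 0.27. The epididymal and epithelial marker lists had medians of -2.42 and -1.44, and their part in the values of this list was not tested. Calm2 and Calm3, which encode a calcium sensor that regulates many enzymes, had nuclei means of 42.5 ± 28.1 and 20.9 ± 10.1 CPM, where whole sperm had 74.3 and 71.6 CPM. S100a11, the partner of Anxa1, had 35, 40 and 365 reads, or 6.34 ± 0.483 against 42.2 CPM (log2 -2.73 ± 1.77, edgeR adjusted p = 0.909). S100a10, the partner of Anxa2, is outside the naming rule and was picked after its values were seen; it had 14, 11 and 288 reads, 2.16 ± 0.723 against 33.3 CPM (log2 -3.94 ± 2.40, edgeR adjusted p = 0.909). Per length, S100a10 was at 1.16 and 0.794 RPKM in the nuclei libraries, where Anxa2 was at 21.5 and 2.05, and at 28.2 RPKM in whole sperm, beside 25.0 for Anxa2.

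Other proteins that bind membranes when calcium rises, copines, ferlins, synaptotagmins and their kin, went both ways. Of 25 listed, 18 were tested, 9 below 0 and 9 above, with a median of 0.02 (-0.39 with nuclei 1 only, -0.27 with nuclei 2 only), and none was called. Rph3a, a rabphilin of regulated exocytosis that has a part in the acrosome reaction, had 307 and 900 reads in nuclei and 48 in whole sperm (58.6 and 135 against 5.54 CPM, log2 4.12 ± 1.15, edgeR adjusted p = 0.132). Dysf, the ferlin of muscle membrane repair, was at 38.6 ± 0.814 and 20.7 CPM, Esyt3 at 45.4 ± 3.79 and 26.9 CPM. Cpne7, a copine, had 410 reads from nuclei 1, none from nuclei 2 and 293 from whole sperm.

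Of 23 membrane repair genes listed, 20 were tested and none was called; 12 lay below 0 and 8 above, with a median of -0.33, beside 45.6% below 0 and a median of 0.27 for all rows. Tsg101, an ESCRT subunit, had a nuclei mean of 1160 ± 298 CPM, beside 1111 CPM for whole sperm. Ahnak, the giant scaffold that S100a10 and Anxa2 hold at the membrane, had 46.5 ± 29.7 and 160 CPM, a log2 fold change of -1.78 ± 0.82 (edgeR adjusted p = 0.71). Pdcd6ip, or Alix, had 13.4 and 16.6 CPM in the nuclei libraries and 56.6 CPM in whole sperm, and Chmp4b had 28.8 ± 17.5 and 33.5 CPM. Of 13 receptors and effectors, 9 were tested, 4 below 0 and 5 above. Pla2g4a, the cytosolic phospholipase that Anxa1 inhibits, was the 1 gene called in the partner lists. It was lower in nuclei, at 7.71 ± 3.08 CPM against 136 CPM (edgeR adjusted p = 0.0244), where 0.0957% of all rows were called lower. In the same test 1 of 8 tested epididymal markers and 1 of 14 tested epithelial markers were called lower. Their part in the value of Pla2g4a was not tested. Pla2g4a was not called with a mean of at least 10 CPM required (edgeR adjusted p = 0.491), where 0 of 7453 rows were called in either direction. Limma on RPKM did not call it either (adjusted p 0.307 to 0.426), and DESeq2 gave it no adjusted p. On log2(RPKM + 0.1) limma called 0 of 18448 rows with the filter, and 4.52% lower and 0.129% higher without. The list's median was 0.90, but -0.88 with nuclei 2 only and -0.54 with spike-in scaling. The 0.90 is the fold change of Dysf, a gene counted both in this list and among the calcium-dependent membrane binders. Plau, the urokinase gene, was at 34.6 ± 25.1 and 96.6 CPM and Rasa1 at 25.4 ± 20.7 and 62.6 CPM, while the Anxa1 receptor gene Fpr2, named after its values were seen, had 70 reads in nuclei 1 and 0 in the others.

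**Figure D4:**
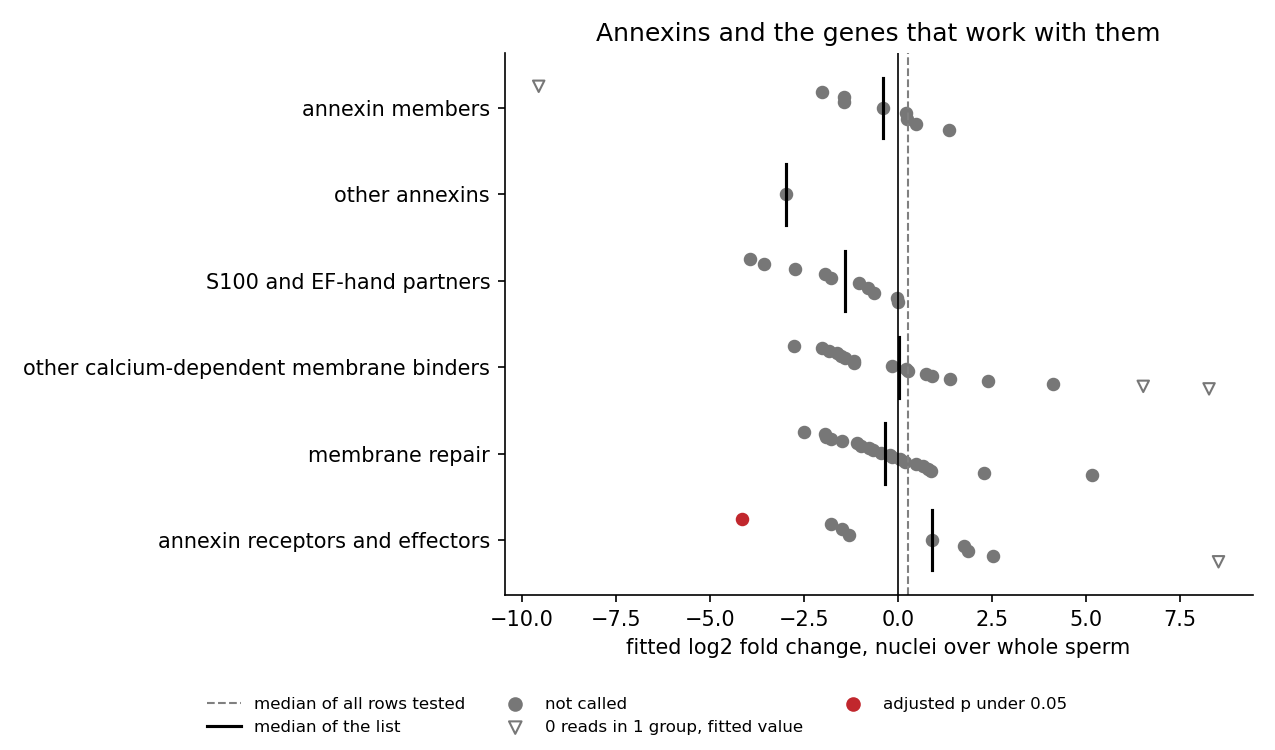
Fitted log2 fold changes, nuclei over whole sperm, of tested annexins and of the partner lists: each point is a gene, black lines are list medians and the dashed line is the median of all rows (0.27). Open triangles are genes with 0 reads in 1 group, whose fitted value is no bound. The red point is Pla2g4a, the only gene called among those shown.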

How the data were processed

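Per the labels' protocols, total RNA was taken from sperm nuclei and from whole sperm, with synthetic spike-in RNAs. The labels name 6 samples, 2 runs of each of 3 preparations, and each deposited table has 1 column per preparation, so runs were taken as combined. The authors deposited raw counts per gene or assembled region, an RPKM table (reads scaled to transcript length and library size), and an adjusted whole-sperm column, handled as a score. All 25610 rows of that deposited score matched, within 0.5, the count in whole sperm minus the nuclei mean, never under 0. Per the submitters' processing notes, build mm10 was used, and the tools named are HTSeq, DESeq2, bedtools, SAMtools 0.1.19, Cufflinks 2.1.1, TopHat2 2.0.12 and CASAVA 1.8.2. What each did, the strand setting and how reads aligned at several places were handled: none of this is given in the sources used here. For whole sperm no read is listed as aligned at several places, which does not tell how such reads were handled before counting.

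Counts of all 25610 rows were fitted in edgeR 4.0.16 under R 4.3.3 (quasi-likelihood F test), with TMM factors, filterByExpr and Benjamini-Hochberg adjustment over the 16720 rows tested, at a threshold of 0.05. With 1 residual degree of freedom, the single library of whole sperm was taken to vary as the nuclei libraries do. The spread was pooled over all rows tested. Close nuclei libraries, as for Anxa11, therefore do not make an SE small, and a gene not called may still differ. The common biological coefficient of variation (relative spread between preparations) was 1.30, but that value alone does not set each SE. Among tested members the SE rose as mean CPM fell, from 0.78 for Anxa11 to 5.68 for Anxa8. Spike-ins and the reads outside features (34.4% of the whole-sperm file) or ambiguous (1.97%) stayed out. Standard errors were derived from the F statistic. A fold against a group with no read used a floor of 3 counts per library and the larger of the nuclei floors. Clopper-Pearson intervals (exact, 95%) go with shares of counts and, like the floors, hold counting error only. The script was tested on simulated counts with less spread than these data, so that check does not show the power of the tests here.

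Alternatives were other scalings (DESeq2 size factors, library size, 23 shared spike-ins), other filters, the 10 most abundant rows left out, DESeq2 1.42.0, limma 3.58.1 on log2(RPKM + 0.1) or log2(RPKM + 1), and each nuclei library alone. Gene positions come from GENCODE vM21 on the assembly of mm10, promoters from RefSeq (GRCm38.p6). Every member was named, with up to 4 genes of highest mean CPM and any called gene of each partner list; others are said to be chosen after their values were seen. A gene that this rule would name is not reported here. The members and lists were chosen with earlier results of these data known.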

Additional observations from a re-analysis of the deposited data

How the results depend on the processing

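No annexin was called in any test run except limma on log2(RPKM + 0.1) with no filter, where 2 of 10 were lower. They were Anxa8 and Anxa3, the latter below the count filter of the edgeR test, and that setting called 4.52% of rows lower. The main edgeR test called 0.0957% of rows lower and 0.0658% higher, and spike-in scaling 3.26% and 0.0239%. With a mean of at least 10 CPM, and with limma on log2(RPKM + 0.1) with the filter, 0% were called. The lack of annexin calls in those 0% settings was thus shared by all rows. The members' median of -0.40 moved to -1.82 with spike-in scaling and to -1.84 with limma on log2(RPKM + 0.1), with or without the filter. It was 0.18 with a mean of at least 10 CPM, which tests fewer members. The median of all rows moved too, from 0.27 to -1.16 with spike-in scaling. By limma on log2(RPKM + 0.1) the median of all rows was -0.59 with the filter and about 0 without. With each nuclei library left out the members' median ranged from -1.27 to 0.55. Spike-in scaling turned Anxa11 to -0.084, Anxa4 to -1.19, Anxa6 to -1.21 and Anxa7 to -0.95, with all rows shifted by its construction. On log2(RPKM + 0.1), with or without the filter, Anxa4 was at -0.46, Anxa6 at -0.63 and Anxa7 at -0.49. With the filter they were at 0.13, -0.05 and 0.10 relative to the median of all rows. On log2(RPKM + 1) they were at -0.44, -0.42 and -0.21, where the median of all rows was -0.21. The cause was not tested. With each nuclei library left out, Anxa4 ranged from -0.074 to 0.58, Anxa6 from -1.27 to 1.01, Anxa7 from -1.16 to 1.30 and Anxa2 from -2.89 to 0.55. The median of calcium-dependent membrane binders, 0.02, turned to -0.066 with library size alone, -1.41 with spike-in scaling, -1.56, -0.41 and -0.19 with limma on log2(RPKM + 0.1), log2(RPKM + 1) and no filter, -0.27 without nuclei 1 and -0.39 without nuclei 2. That of receptors and effectors, 0.90, turned to -0.54 with spike-in scaling, -1.30 with no filter, -1.61 with a mean of at least 10 CPM, -1.01, -0.21 and -0.069 with the same limma settings and ranged from -0.88 to 0.96 with each nuclei library left out. Depth limits Anxa3, at 6 reads in whole sperm. The limma calls of Anxa3 and Anxa8 set nuclei values with no spread, at 0 RPKM, against 1 library. No paired analysis was possible because whole sperm has 1 preparation.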
